A study of Mus musculus with 12 samples.

Results

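The mitosis and G2/M genes described here are 35 genes that act from the end of G2 to the exit from mitosis. They were taken by symbol from a table of 24341 genes, in which each of them had 1 entry, and all 35 passed the filter on low values that left 11777 genes for testing. RNA was sequenced from adipose-derived cells of C57Bl/6 mice that had been immortalised with SV40, in 12 libraries that form 4 groups of 3. Control cells carried Acly between loxP sites (Aclyf/f), and the others lacked the gene (Acly-/-), which encodes ATP citrate lyase, the enzyme that cuts citrate to acetyl-CoA in the cytosol. Preadipocytes of both genotypes were taken on day 0, after growth to confluence in DMEM with 10% serum. Adipocytes of both genotypes were taken on day 4 after an adipogenic cocktail that held rosiglitazone, an agonist of PPARgamma. All 4 groups share the SV40 immortalisation, which is known to act through the large T antigen, a viral protein that binds the retinoblastoma family of cell cycle inhibitors. The labels do not say how Acly was deleted, nor whether a group's 3 libraries come from separate cultures, clones or animals, so p-values measure only the spread between these libraries.

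Cells enter mitosis when cyclin B activates the kinase Cdk1, and leave it when the ubiquitin ligase APC/C, activated by Cdc20, has cyclin B and securin destroyed. The spindle checkpoint holds Cdc20 back until every chromosome is attached to the spindle. The genes of this phase are transcribed together late in the cycle: in resting cells the DREAM complex keeps them silent, and in G2 the MuvB core with B-Myb and Foxm1 activates them, largely through a promoter element called the cell cycle genes homology region (CHR). In cultured preadipocytes, an adipogenic cocktail given at confluence is known to start a short phase of cell division (mitotic clonal expansion) before the cells leave the cycle and fill with fat.

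Values are FPKM, a count of fragments divided by transcript length and by the size of the library. Log2 changes are differences of mean log2(FPKM + 1), which understates changes at low values, and a gene was called at a limma adjusted p under 0.05 over all genes tested. Relative depth differed by up to 1.94-fold between libraries. Acly stood at 89.5, 86.2 and 84.9 FPKM in Aclyf/f and at 11.9, 12.5 and 11.9 FPKM in Acly-/- preadipocytes. In adipocytes it stood at 814, 722 and 724 FPKM and at 13.2, 12.8 and 11.02 FPKM, so every library matched its genotype label. Acly-/- preadipocyte library 3 stands apart by the small nucleolar RNA gene Snord12, at 54145 FPKM. Its summed FPKM was 608176, against 498316 to 560172 in the other 11 libraries. In median-of-ratios rescaling its factor was 0.994, within the range of 0.990 to 1.016 of the other 11 libraries. Of the defining preadipocyte markers, Dlk1 and Thy1 were under 1 FPKM in every library.

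The members together were most abundant in preadipocytes, where the ranges of both genotypes overlapped, and least abundant in Acly-/- adipocytes. On day 0 their summed FPKM was 1323 to 1333 with Acly and 1251 to 1340 without it. On day 4 the sum was 1072 to 1093 with Acly and 629 to 670.0 without it. Set against the Aclyf/f preadipocyte mean of the same gene, the median member stood at 96.3% in Acly-/- preadipocytes, at 80.6% in Aclyf/f adipocytes and at 44.1% in Acly-/- adipocytes. Group means ran from 8.29 FPKM (Espl1) to 97.8 FPKM (Top2a) in Aclyf/f preadipocytes, and from 3.50 FPKM (Espl1) to 40.5 FPKM (Pttg1) in Acly-/- adipocytes. For 32 of the 35 members, each of the 3 Acly-/- adipocyte libraries lay below all 9 other libraries, which held for 8.45% of all genes tested. The exceptions were Bub3, Cdc25b and Pttg1.

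**Figure D1:**
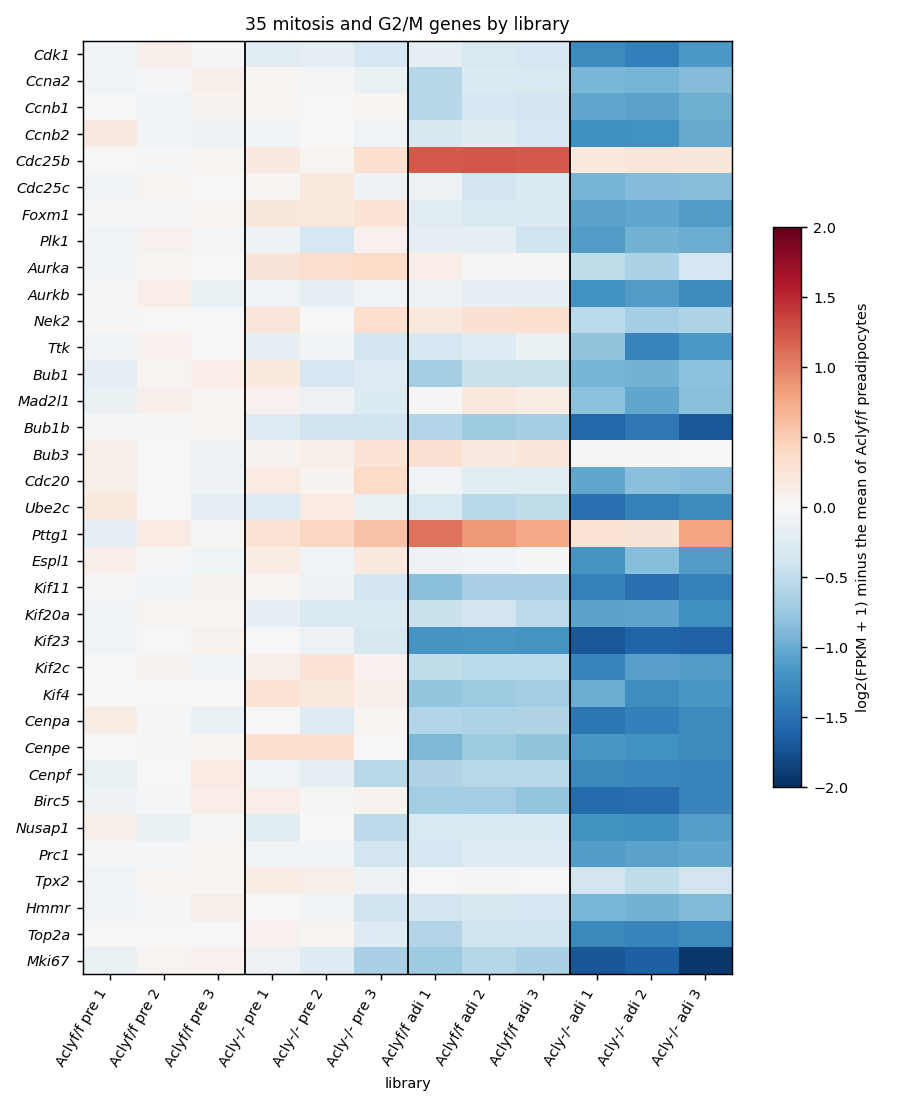
Colour shows log2(FPKM + 1) of each of the 35 members (vertical axis, grouped by role) in each of the 12 libraries (horizontal axis), minus the mean of the 3 Aclyf/f preadipocyte libraries. The 3 Acly-/- adipocyte libraries on the right are blue for 32 members, while Cdc25b and Pttg1 are red in the Aclyf/f adipocyte libraries.

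In adipocytes, Acly loss went with lower levels of every member. All 35 were called lower in Acly-/- than in Aclyf/f adipocytes, where 54.8% of all genes tested were called (29.2% lower and 25.6% higher). The median log2 change of the members was -0.75, from -1.11 for Mki67 to -0.26 for Bub3, against a median of -0.02 over all genes tested. In 34 members no Acly-/- library reached the lowest Aclyf/f library, an arrangement found in 33.7% of all genes tested, and Pttg1 was the exception. As a percentage of the Aclyf/f adipocyte mean, Acly-/- adipocytes had from 44.2% (Espl1) to 83.1% (Bub3), with a median of 57.8%. These are bulk libraries, in which fewer cells in mitosis and less mitotic RNA per cell cannot be told apart.

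All 7 genes of the cyclins, Cdk1 and its activators fell, with a median log2 change of -0.82. Cdk1 (chr10:69336635-69352912, mm10), the kinase that drives entry into mitosis, stood at 59.5, 54.8 and 52.8 FPKM in Aclyf/f and at 27.6, 25.8 and 30.2 FPKM in Acly-/- adipocytes. The groups were well apart, and the mean was 1.998-fold lower without Acly (log2 change -0.97, SE 0.08, limma adjusted p = 3.01e-07). Of its partners, the cyclin A2 gene Ccna2 changed by -0.53, SE 0.08, and the cyclin B genes Ccnb1 and Ccnb2 by -0.59 and -0.85. Cdc25b, whose product is a phosphatase that removes the inhibitory phosphates from Cdk1, stood at 34.2, 34.7 and 34.2 FPKM in Aclyf/f and at 16.2, 16.8 and 16.6 FPKM in Acly-/- adipocytes, 2.08-fold lower (log2 change -1.01, SE 0.07, limma adjusted p = 1.04e-07). The interval of Cdc25b is shared with 12 other genes, a limit described below. Its relative Cdc25c changed by -0.63, SE 0.10, from a mean of 9.24 ± 1.01 to 5.59 ± 0.169 FPKM (SD, n = 3). Foxm1, the transcription factor of G2 and mitosis genes, went from 20.2 ± 0.673 to 11.02 ± 0.313 FPKM (log2 change -0.82, SE 0.06, limma adjusted p = 1.85e-07).

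Each of the 6 mitotic kinase genes fell. Aurkb (chr11:69045643-69051662), which encodes the kinase of the chromosomal passenger complex, had the largest change of these, from 27.8, 26.9 and 26.4 FPKM with Acly to 12.5, 13.4 and 12.04 FPKM without (log2 change -1.04, SE 0.08, limma adjusted p = 1.41e-07). Aurka (chr2:172356190-172370570), whose product works at the centrosomes and spindle poles, went from 30.3, 28.2 and 28.2 FPKM to 19.2, 17.4 and 21.6 FPKM, 1.49-fold lower (log2 change -0.56, SE 0.08, limma adjusted p = 5.56e-05). In both genes all 3 Acly-/- libraries lay below all 3 Aclyf/f libraries, with a wider gap for Aurkb. Plk1, which encodes a kinase of centrosome maturation and mitotic entry, changed by -0.76, SE 0.10, Nek2, for a kinase of centrosome separation, by -0.90, SE 0.09, and Ttk, for the checkpoint kinase Mps1, by -0.84, SE 0.12. Bub1 (chr2:127800200-127831859), which encodes a kinetochore kinase, had the smallest change among them. It stood at 7.96, 9.59 and 9.49 FPKM with Acly and 6.57, 6.49 and 7.11 FPKM without, and the gap between the groups, 7.11 against 7.96 FPKM, was narrow (log2 change -0.37, SE 0.13, limma adjusted p = 0.0278).

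The spindle checkpoint held both a strongly and a weakly changed gene. Mad2l1 (chr6:66535468-66540991), which encodes the checkpoint protein Mad2, stood at 38.6, 44.1 and 41.98 FPKM in Aclyf/f and 20.9, 17.9 and 20.8 FPKM in Acly-/- adipocytes, 2.09-fold lower (log2 change -1.03, SE 0.10, limma adjusted p = 1.78e-06). Bub1b, for the checkpoint protein BubR1, went from 17.5 ± 0.780 to 8.85 ± 0.878 FPKM (log2 change -0.91, SE 0.08, limma adjusted p = 6.28e-07). Bub3 (chr7:131560391-131571898), whose protein brings Bub1 and BubR1 to kinetochores, went from 44.4, 40.7 and 42.5 FPKM to 34.9, 34.98 and 36.3 FPKM. Its groups did not overlap, but the mean was only 1.203-fold lower, the smallest change of the 35 members (log2 change -0.26, SE 0.08, limma adjusted p = 0.0116).

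All 4 genes of anaphase release fell as well. Ube2c (chr2:164769929-164772902), which encodes a ubiquitin-conjugating enzyme of the APC/C, stood at 78.02, 65.3 and 67.8 FPKM with Acly and at 33.9, 37.1 and 39.8 FPKM without (log2 change -0.91, SE 0.12, limma adjusted p = 2.43e-05). Cdc20, for the APC/C activator, changed by -0.75, SE 0.09, and Espl1, for separase, the protease that opens cohesin, by -0.99, SE 0.10, at means of 7.92 ± 0.241 and 3.501 ± 0.564 FPKM. Pttg1 (chr11:43420248-43426248), which encodes securin, the inhibitor of separase, stood at 62.4, 53.8 and 49.6 FPKM with Acly and at 35.6, 35.02 and 50.8 FPKM without (log2 change -0.46, SE 0.14, limma adjusted p = 0.0155). Library 3 of the Acly-/- group lay within the range of the Aclyf/f group. The calls of 2 members were not kept throughout: without 1 of 4 libraries in turn the adjusted p of Bub1 rose to between 0.0708 and 0.0883, and without 1 of 3 libraries that of Pttg1 to between 0.0632 and 0.0701, while Bub1 also missed the threshold without the filter (0.0573) and after quantile normalization (0.0548).

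The 5 kinesin genes, whose products are motors of spindle and cell division, fell by a median of 0.65 on the log2 scale. Kif20a (chromosome 18), for a kinesin of the central spindle, stood at 35.5, 36.9 and 33.5 FPKM in Aclyf/f and 22.6, 22.97 and 20.3 FPKM in Acly-/- adipocytes (log2 change -0.66, SE 0.07, limma adjusted p = 5.4e-06). Kif11, for the motor that pushes spindle poles apart, changed by -0.69, SE 0.10, Kif2c, for a microtubule depolymerase at centromeres, by -0.65, SE 0.08, and Kif23, for a motor of cytokinesis, by -0.46, SE 0.09. Kif4 (chrX:100626065-100727271), for a kinesin on chromosome arms, had the smallest change of the kinesins, from 7.78, 8.101 and 8.26 FPKM to 6.61, 5.34 and 5.73 FPKM (log2 change -0.40, SE 0.08, limma adjusted p = 0.00112). In each of the 5 genes the groups did not overlap.

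Among the centromere and passenger proteins, Birc5 (chr11:117849237-117855743), which encodes survivin, the partner of Aurora B, was the most abundant. It stood at 49.4, 48.98 and 45.9 FPKM with Acly and 26.6, 27.4 and 31.4 FPKM without, 1.69-fold lower (log2 change -0.74, SE 0.08, limma adjusted p = 4.37e-06). Cenpa, for the histone H3 variant that marks centromeres, changed by -0.76, SE 0.09, Cenpf, for a kinetochore protein, by -0.73, SE 0.11, and Cenpe, for a kinetochore motor, by -0.41, SE 0.09. Of the 4 spindle microtubule proteins, Tpx2 (chr2:152847964-152895321), for the activator of Aurora A on the spindle, went from 45.1, 45.3 and 44.5 FPKM to 34.3, 31.1 and 34.3 FPKM (log2 change -0.43, SE 0.08, limma adjusted p = 0.000344). Nusap1, for a protein that bundles spindle fibres near chromatin, changed by -0.88, SE 0.11, Prc1, for the crosslinker of the central spindle, by -0.79, SE 0.08, and Hmmr, for a protein that helps spindle assembly, by -0.57, SE 0.09. No library of one genotype reached into the other in any of these 8 genes.

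The chromosome proteins included Top2a, with the highest mean over the 12 libraries, and Mki67, with the largest change on the log2(FPKM + 1) scale. Top2a (chr11:98992947-99024189), for the topoisomerase that untangles sister DNA, stood at 64.95, 73.8 and 74.2 FPKM in Aclyf/f and 39.4, 38.01 and 39.8 FPKM in Acly-/- adipocytes (log2 change -0.84, SE 0.09, limma adjusted p = 3.07e-06). Mki67 (chr7:135689788-135716379), whose protein coats mitotic chromosomes and is the common marker of dividing cells, stood at 33.00, 36.7 and 34.6 FPKM with Acly and 16.1, 17.05 and 13.7 FPKM without. The mean was 2.22-fold lower (log2 change -1.11, SE 0.12, limma adjusted p = 5.06e-06), and the groups were far apart. By the ratio of means alone, the less abundant Espl1 fell further (2.26-fold).

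**Figure D2:**
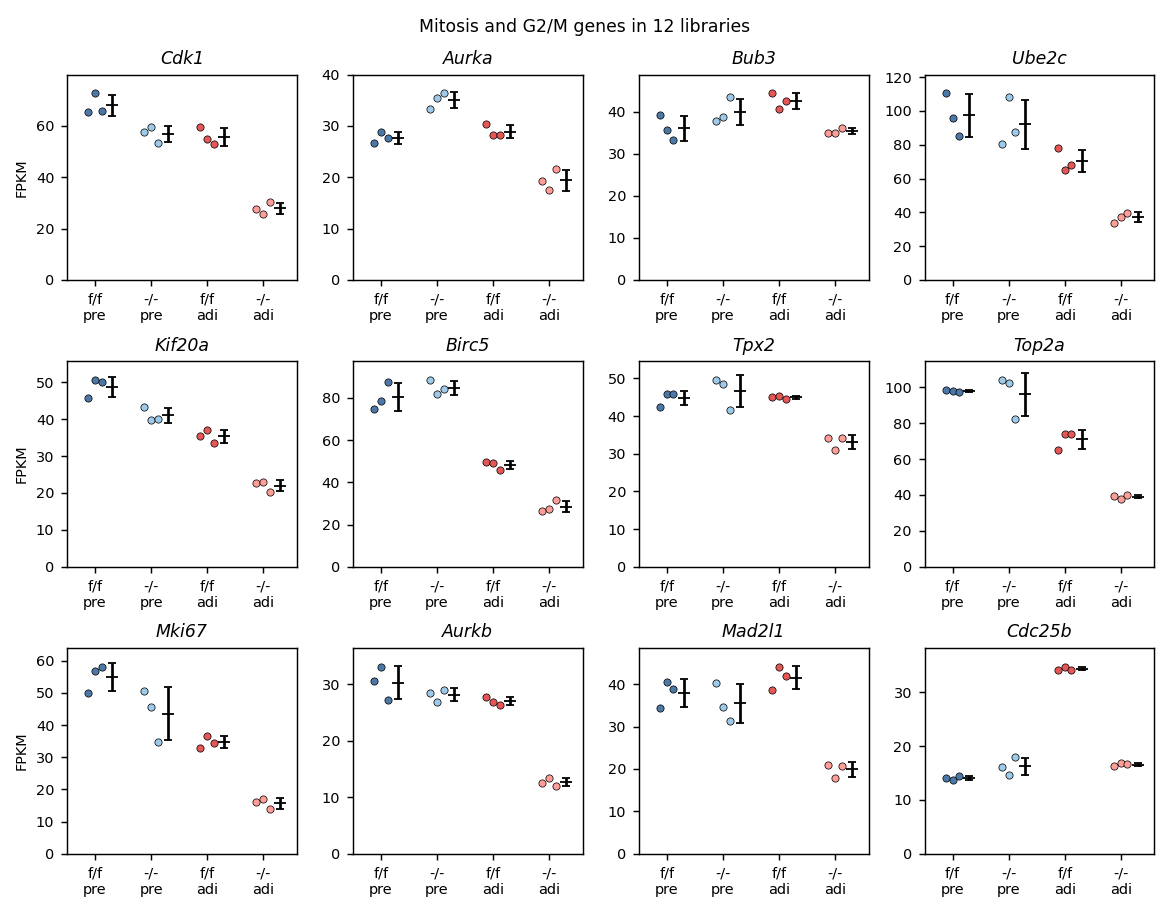
Each panel shows the FPKM (vertical axis from 0) of 1 member in the 3 libraries of each group (f/f, Aclyf/f; -/-, Acly-/-; pre, preadipocyte; adi, adipocyte). Points are libraries and bars are mean ± SD (n = 3); the Acly-/- adipocyte points are lowest in every panel except those of Bub3, where they overlap preadipocytes, and Cdc25b, where they lie among the preadipocyte values.

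The promoters of the members were searched for the CHR, a short element of mitosis genes, and for the CCAAT box, the site of the factor NF-Y often found upstream of it. The sequences run from 250 bases before to 50 bases after a transcript start, from RefSeq on GRCm38.p6 (the assembly called mm10), and 29 of the 35 members matched by symbol. The CHR was searched as TTTGAA or TTCGAA and the CCAAT box as CCAAT, on both strands, with each gene counted once and overlaps allowed. A CHR match was found in 22 of the 29 members (75.9%), against 21.7% of 27025 genes with a promoter in the same table. CCAAT was found in 24 members (82.8%) against 41.1% of genes, and both in 21 members (72.4%) against 8.61%. TTTGAA alone was in 20 members (69.0%) and 20.2% of genes, and TTCGAA in 4 members (13.8%) and 1.80% of genes. Members with a CHR match had a median log2 change of -0.76 with Acly loss in adipocytes (n = 22), and the 7 members without a match had -0.74. A match is a run of letters in this window and was not tested as a binding site. The part of these elements in the changes with Acly loss was not tested.

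Whole promoters are shown for Mki67, Cdc25b and Espl1, the 3 members with the largest log2 change in adipocytes among those with a CHR match and a promoter in the table, so that the spacing of the elements can be seen. They lie at chr7:135716330-135716629 (minus strand), chr2:131186698-131186997 (plus strand) and chr15:102296043-102296342 (plus strand), are written 5′ to 3′ in the direction of the gene, and have CHR and CCAAT matches on either strand in capitals (ATTGG is CCAAT read on the other strand). 
Mki67: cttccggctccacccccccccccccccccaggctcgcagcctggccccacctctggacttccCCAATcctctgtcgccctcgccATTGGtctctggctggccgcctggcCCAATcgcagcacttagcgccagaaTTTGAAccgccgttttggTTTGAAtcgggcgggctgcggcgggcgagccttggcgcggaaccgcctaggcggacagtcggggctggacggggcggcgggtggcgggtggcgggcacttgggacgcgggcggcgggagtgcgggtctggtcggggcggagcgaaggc
Cdc25b: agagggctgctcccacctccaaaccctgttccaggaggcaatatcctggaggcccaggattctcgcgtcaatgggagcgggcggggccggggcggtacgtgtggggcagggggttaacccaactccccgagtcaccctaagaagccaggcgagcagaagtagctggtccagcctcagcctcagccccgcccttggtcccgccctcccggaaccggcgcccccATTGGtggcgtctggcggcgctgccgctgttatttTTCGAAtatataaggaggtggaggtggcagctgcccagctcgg
Espl1: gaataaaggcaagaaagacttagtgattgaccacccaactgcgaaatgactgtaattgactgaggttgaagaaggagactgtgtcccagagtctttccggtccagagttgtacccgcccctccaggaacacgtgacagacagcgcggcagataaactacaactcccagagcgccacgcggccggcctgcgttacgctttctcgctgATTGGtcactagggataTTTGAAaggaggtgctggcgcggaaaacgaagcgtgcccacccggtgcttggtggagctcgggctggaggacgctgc
The Mki67 promoter held 2 CHR and 3 CCAAT matches, and those of Cdc25b and Espl1 held 1 of each, with the CCAAT match upstream of the CHR in all 3.

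To show how the element recurs across the 8 role groups, 1 match is given for each, in the most abundant member with a TTTGAA match in the table. Each is printed with its flanks in 30 bases, 5′ to 3′ on the strand that carries TTTGAA, with the element in capitals. Where a member had more than 1 match or start, the match nearest to a start is printed, which narrows the range of positions. In the direction of the gene, the first base of the printed element lay between position -43 (Bub3) and position 33 (Aurka). Cdk1 held 2 CHR matches and Top2a held 4, and those not printed lay further upstream. From another transcript start of Bub3 the printed element lay at position -167. 
Cdk1: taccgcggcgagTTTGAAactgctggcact
Aurka: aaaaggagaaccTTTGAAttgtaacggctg
Bub3: tcattggctgatTTTGAAcgccaacggctc
Ube2c: ccgccgcccgcgTTTGAAttgcaaccctcc
Kif11: ccgcgcctcaatTTTGAAaaatggagacga
Cenpa: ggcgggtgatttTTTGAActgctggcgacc
Prc1: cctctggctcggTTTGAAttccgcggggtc
Top2a: tccctagtttcaTTTGAAcctttatctagc
The members shown were chosen for carrying the element, Bub3, with the smallest change in adipocytes, among them. The part of the element in the changes was not tested. The windows lie at chr10:69352910-69352939 (minus), chr2:172370521-172370550 (minus), chr7:131560315-131560344 (minus), chr2:164769888-164769917 (minus), chr19:37376351-37376380 (minus), chr5:30666890-30666919 (plus), chr7:80294434-80294463 (plus) and chr11:99024195-99024224 (plus), with the strand that is printed in brackets.

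In preadipocytes, before the cocktail, Acly loss went with small and mixed differences. Of the 35 members 3 were called higher and 4 lower, where 42.2% of all genes tested were called (19.7% higher and 22.4% lower). The median log2 change of the members was -0.05 (all genes -0.01), and the range was -0.35 (Bub1b) to 0.42 (Pttg1). In 6 members every Acly-/- library lay above every Aclyf/f library and in 4 every one lay below, arrangements found in 23.2% and 26.7% of all genes tested.

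The 3 members that rose were Aurka, Foxm1 and Pttg1. Aurka stood at 26.6, 28.8 and 27.6 FPKM in Aclyf/f and 33.4, 35.5 and 36.4 FPKM in Acly-/- preadipocytes (log2 change 0.33, SE 0.08, limma adjusted p = 0.00455). Foxm1 (chr6:128362994-128385144) stood at 23.9, 23.9 and 25.3 FPKM and 28.6, 28.4 and 29.8 FPKM (log2 change 0.24, SE 0.06, limma adjusted p = 0.00879). Pttg1 stood at 25.2, 32.7 and 29.6 FPKM and 35.1, 39.1 and 43.9 FPKM (log2 change 0.42, SE 0.14, limma adjusted p = 0.0295). In all 3 genes the Acly-/- libraries lay above the Aclyf/f libraries, by the least for Pttg1.

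The 4 members that fell were Cdk1, Bub1b, Kif20a and Mki67. Cdk1 stood at 65.4, 72.6 and 65.9 FPKM in Aclyf/f and 57.7, 59.5 and 53.1 FPKM in Acly-/- preadipocytes (log2 change -0.26, SE 0.08, limma adjusted p = 0.0194). Bub1b (chr2:118598211-118641592) stood at 27.3, 27.7 and 29.4 FPKM and 23.3, 21.2 and 21.1 FPKM (log2 change -0.35, SE 0.08, limma adjusted p = 0.00316). Both genes separated the genotypes. Kif20a stood at 45.7, 50.6 and 49.9 FPKM and 43.3, 39.6 and 40.2 FPKM (log2 change -0.24, SE 0.07, limma adjusted p = 0.0173), also without overlap. Mki67 stood at 50.1, 56.8 and 58.1 FPKM and 50.6, 45.5 and 34.6 FPKM (log2 change -0.34, SE 0.12, limma adjusted p = 0.0364). Its groups overlapped, and library 3 of the Acly-/- group, the library with the high Snord12 value, was the lowest.

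The 28 remaining members were not called in preadipocytes. Among them Aurkb stood at 30.3 ± 2.95 and 28.2 ± 1.13 FPKM, Birc5 at 80.4 ± 6.63 and 84.9 ± 3.33 FPKM, and Top2a at 97.8 ± 0.706 and 96.02 ± 12.1 FPKM (mean ± SD, n = 3) with and without Acly. These counts rested on single libraries: the count of lower members went from 4 to 1 without Aclyf/f library 2, and to 2 without Aclyf/f library 3 or without Acly-/- library 3, and the count of higher members went from 3 to 5 without Acly-/- library 2. Of the 7 calls, those of Aurka and Bub1b held in every alternative tried, and the others were lost in 1 to 5. Pttg1 missed the threshold in 5, without Aclyf/f library 1 or 3, without Acly-/- library 2 or 3 and without the filter (adjusted p from 0.0564 to 0.115). Mki67 missed it in 5, without Aclyf/f library 2 or 3, without Acly-/- library 3, without the filter and when only the preadipocyte groups were fitted (adjusted p from 0.0682 to 0.153). Kif20a missed it without Aclyf/f library 2 or 3 or Acly-/- library 2 (adjusted p from 0.0558 to 0.0682), and Cdk1 without Aclyf/f library 2 (0.0882) or Acly-/- library 3 (0.0660). Foxm1 missed it when libraries were scaled to the same FPKM sum (adjusted p = 0.160). The log2 change of Mki67 without Acly-/- library 3 was -0.19. Another 6 members were called in 1 to 3 alternatives, Cdc25b, Nek2, Cdc20 and Cenpe as higher and Cenpf and Nusap1 as lower.

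**Figure D3:**
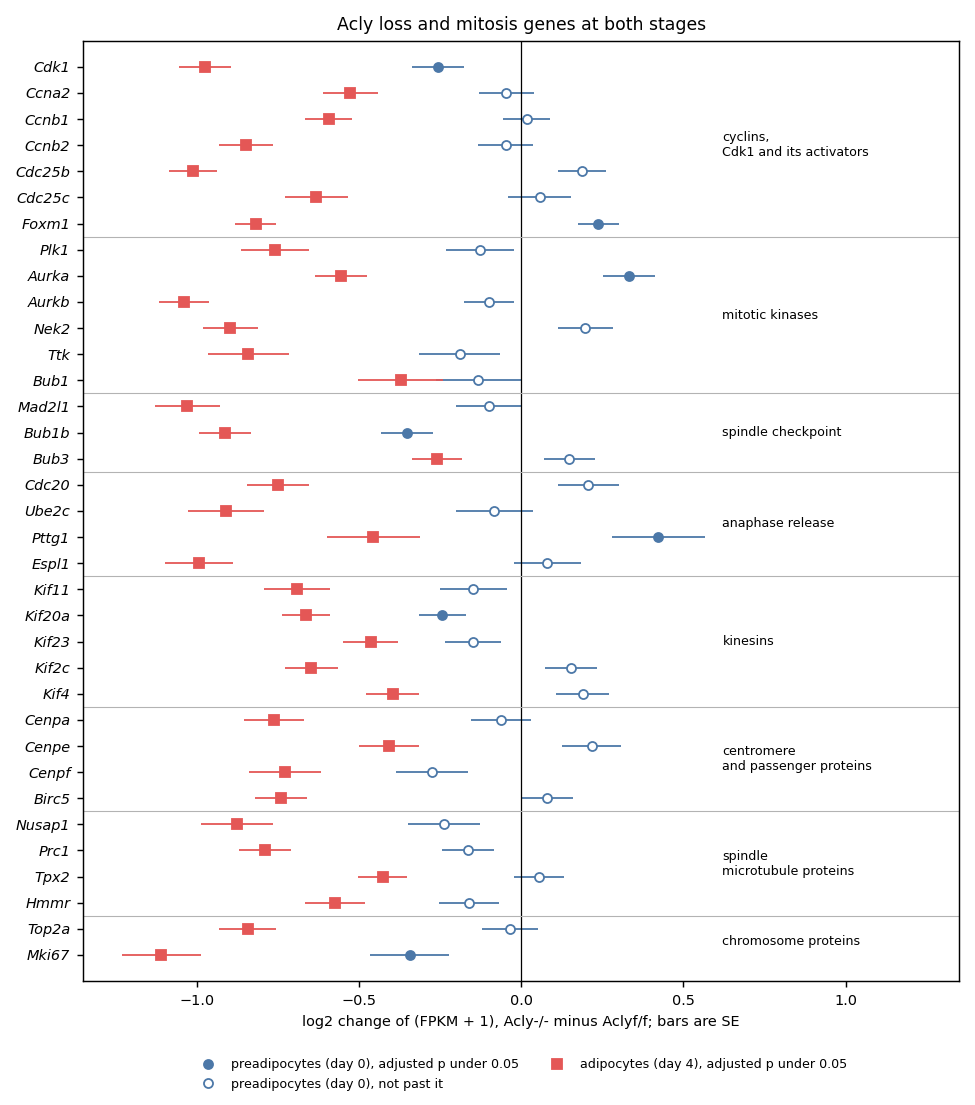
Points give the log2 change of (FPKM + 1) with Acly loss (horizontal axis; bars are SE, n = 3 per group) for each member (vertical axis), as blue circles for preadipocytes and red squares for adipocytes; filled symbols passed a limma adjusted p of 0.05. All 35 red squares lie left of 0, between -1.11 and -0.26, and the blue circles scatter around 0, between -0.35 and 0.42.

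Whether the effect of Acly loss differed between the stages was tested with the interaction term of the same fit. The log2 change in adipocytes minus that in preadipocytes was negative for all 35 members and passed the test for 34, where 50.2% of all genes tested were called (26.4% lower and 23.7% higher). The median of this difference was -0.69 over the members and -0.02 over all genes. On the log2(FPKM + 1) scale Cdc25b, whose interval is shared with 12 other genes, had the largest difference (-1.20, SE 0.10, adjusted p = 9.28e-07). Nek2 (-1.09, SE 0.12), Espl1 (-1.07, SE 0.15) and Foxm1 (-1.06, SE 0.09) followed. Bub1 was the member for which no difference was detected (log2 change -0.24, SE 0.19, limma adjusted p = 0.302). The call of Kif23 (adjusted p = 0.0439) was lost in 14 of the 18 alternatives tried for it, that of Cenpf (adjusted p = 0.0285) in 9, and that of Hmmr when libraries were scaled to the same FPKM sum (adjusted p = 0.0843).

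In Aclyf/f cells, differentiation went with modest falls in most members and rises in a few. From day 0 to day 4, 24 members were called lower and 4 higher, where 72.5% of all genes tested were called (36.0% lower and 36.5% higher). The median log2 change was -0.30, against -0.0018 over all genes. Groups did not overlap in 25 members that were lower and in 4 that were higher, arrangements found in 37.8% and 37.9% of all genes tested.

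The rises were those of Cdc25b, Pttg1, Nek2 and Bub3. Cdc25b rose from 14.00, 13.8 and 14.5 FPKM to 34.2, 34.7 and 34.2 FPKM, 2.44-fold (log2 change 1.23, SE 0.07, limma adjusted p = 3.12e-09). Day-4 libraries lay far above day-0 libraries. The table gives Cdc25b the interval chr2:131127412-131604824, which it also gives to 12 other genes, and whether fragments of these genes were kept apart is not stated. Another 6 members (Ccna2, Foxm1, Cdc20, Kif20a, Nusap1 and Tpx2) have an interval shared with 1 or 2 genes. Pttg1 rose from 25.2, 32.7 and 29.6 FPKM to 62.4, 53.8 and 49.6 FPKM, 1.896-fold (log2 change 0.90, SE 0.14, limma adjusted p = 6.37e-05). Nek2 (chr1:191821473-191833049) rose from 15.5, 15.1 and 15.2 FPKM to 17.9, 19.02 and 19.4 FPKM (log2 change 0.28, SE 0.09, limma adjusted p = 0.0092), and Bub3 from 39.2, 35.8 and 33.2 FPKM to 44.4, 40.7 and 42.5 FPKM (log2 change 0.24, SE 0.08, limma adjusted p = 0.0138). All 4 separated the stages, Bub3 by the least, and Bub3 missed the threshold after quantile normalization (adjusted p = 0.110) and without Aclyf/f preadipocyte library 3 (0.0732).

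The falls in Aclyf/f cells were largest among the kinesins and centromere proteins. All 5 kinesin genes fell, with a median log2 change of -0.71, and so did all 4 genes of the centromere and passenger proteins, with a median of -0.66. Kif23 (chr9:61917278-61946799) fell most, from 19.3, 20.6 and 21.6 FPKM to 8.45, 8.54 and 8.505 FPKM (log2 change -1.18, SE 0.09, limma adjusted p = 2.52e-08), so the Aclyf/f adipocyte mean was 41.5% of the preadipocyte mean. Birc5 fell from 74.9, 78.6 and 87.8 FPKM to 49.4, 48.98 and 45.9 FPKM (log2 change -0.73, SE 0.08, limma adjusted p = 1.86e-06), and Kif4 from 14.1, 14.1 and 14.1 FPKM to 7.78, 8.101 and 8.26 FPKM (log2 change -0.74, SE 0.08, limma adjusted p = 2.12e-06). Each of the 3 genes separated the stages by a wide gap. Top2a fell from 98.4, 98.1 and 97.04 FPKM to 64.95, 73.8 and 74.2 FPKM (log2 change -0.46, SE 0.09, limma adjusted p = 0.000312), and Ube2c from 110.5, 96.01 and 85.4 FPKM to 78.02, 65.3 and 67.8 FPKM (log2 change -0.46, SE 0.12, limma adjusted p = 0.00329).

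Another 7 members were not called with differentiation in Aclyf/f cells: Aurka, Aurkb, Ttk, Mad2l1, Cdc20, Espl1 and Tpx2. Tpx2 stood at 42.5, 45.9 and 45.8 FPKM on day 0 and 45.1, 45.3 and 44.5 FPKM on day 4 (0.01, SE 0.08). Mad2l1 stood at 34.3, 40.6 and 38.9 FPKM and 38.6, 44.1 and 41.98 FPKM (0.13, SE 0.10), and Aurkb at 30.6, 33.1 and 27.2 FPKM and 27.8, 26.9 and 26.4 FPKM (-0.16, SE 0.08). The stages overlapped in each of these 3 genes. Aurkb and Cdc20 were called lower after quantile normalization (adjusted p = 0.0141 and 0.0107), Aurkb also without Aclyf/f preadipocyte library 3 (0.0223), and Ttk when only the Aclyf/f groups were fitted (0.0281) or without Acly-/- adipocyte library 1 (0.0450). The calls of 3 members that fell were the least steady. That of Cdc25c was lost in 5 alternatives (adjusted p from 0.0726 to 0.132), among them those without preadipocyte library 2 or 3 or adipocyte library 2 or 3. That of Plk1 was lost in 6, without any 1 of the preadipocyte libraries, without adipocyte library 3, without the filter and with the replicate number as a block (adjusted p from 0.0509 to 0.155). That of Nusap1 was lost in 6, without preadipocyte library 1 or 3, without any 1 of the adipocyte libraries and at the same FPKM sum (adjusted p from 0.0541 to 0.0934).

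In Acly-/- cells, differentiation went with falls in nearly all members. From day 0 to day 4, 32 members were called lower, where 61.4% of all genes tested were called (31.0% lower and 30.4% higher), and no member was higher by limma, nor at an unadjusted p under 0.05. The median log2 change was -1.03 (all genes 0.0037). In 33 members all day-4 libraries lay below all day-0 libraries, an arrangement found in 32.5% of all genes tested. Birc5 fell most on the log2 scale, from 88.5, 81.9 and 84.3 FPKM to 26.6, 27.4 and 31.4 FPKM (log2 change -1.55, SE 0.08, limma adjusted p = 1.62e-09). Its day-4 libraries were far below the lowest day-0 library, and the mean was 2.98-fold lower, against 3.13-fold for Kif23. Kif23 followed (-1.49, SE 0.09), then Cenpe (-1.43, SE 0.09) and Mki67, which fell from 50.6, 45.5 and 34.6 FPKM to 16.1, 17.05 and 13.7 FPKM (log2 change -1.41, SE 0.12, limma adjusted p = 2.88e-07).

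The members not called in Acly-/- cells were Cdc25b, Pttg1 and Bub3, which had risen with differentiation in Aclyf/f cells. Cdc25b stood at 16.1, 14.7 and 17.9 FPKM on day 0 and 16.2, 16.8 and 16.6 FPKM on day 4 (log2 change 0.03, SE 0.07, limma adjusted p = 0.715). Pttg1 stood at 35.1, 39.1 and 43.9 FPKM and 35.6, 35.02 and 50.8 FPKM (log2 change 0.02, SE 0.14, limma adjusted p = 0.899). Both genes overlapped between the stages. Bub3 stood at 37.9, 38.7 and 43.6 FPKM and 34.9, 34.98 and 36.3 FPKM (log2 change -0.17, SE 0.08, limma adjusted p = 0.0682), with every day-4 library below every day-0 library, and it was called lower after quantile normalization (-0.19, adjusted p = 0.0331) and after median-of-ratios rescaling (-0.19, adjusted p = 0.0450). Nek2, the other member that rose in Aclyf/f cells, fell from 18.3, 15.4 and 19.5 FPKM to 10.2, 9.15 and 9.56 FPKM (log2 change -0.81, SE 0.09, limma adjusted p = 2e-06).

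**Figure D4:**
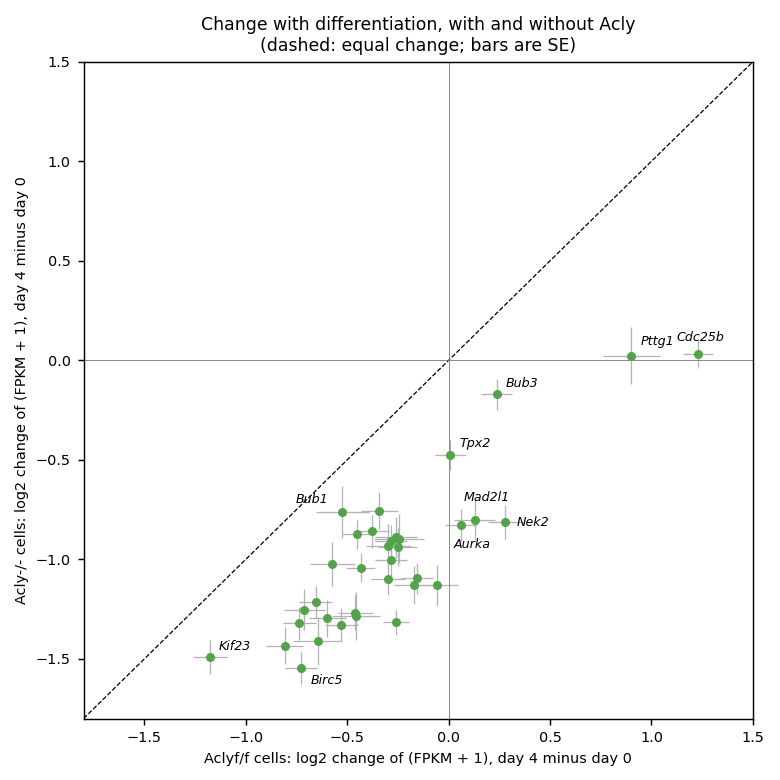
Each point is 1 of the 35 members, placed by its log2 change of (FPKM + 1) from day 0 to day 4 in Aclyf/f cells (horizontal axis) and in Acly-/- cells (vertical axis), with SE bars (n = 3 per group). Every point lies below the dashed line of equal change, with Cdc25b and Pttg1 at the right near 0 on the vertical axis and Kif23 at the far left.

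The 4 comparisons share groups, so each gene's calls are given side by side. Patterns over the comparisons were counted for the members only, so no share of all genes tested stands beside them. A set of 18 members was not called in preadipocytes and was called lower in adipocytes, with differentiation in either genotype and in the interaction. It held the 3 cyclin genes, Cdc25c, Plk1, Ube2c, 4 kinesin genes, all 4 genes of the centromere and passenger proteins, Nusap1, Prc1, Hmmr and Top2a. For Cdc25c, Plk1 and Nusap1 this rests on the unsteady calls with differentiation in Aclyf/f cells, and for Kif23, Cenpf and Hmmr on those of the interaction, given above. Another 4 members (Cdk1, Bub1b, Kif20a and Mki67) were called lower in all 5 tests, of which the preadipocyte call held in every alternative for Bub1b but not for the other 3. The mean was highest in Aclyf/f preadipocytes for 19 members, in Acly-/- preadipocytes for 11 and in Aclyf/f adipocytes for 5, and lowest in Acly-/- adipocytes for 33. These orderings, too, were counted for the members only. The stricter arrangement, with every Acly-/- adipocyte library below all 9 others, held for 32 members and 8.45% of all genes tested.

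Genes beside the 35 members were read from 6 further cell cycle lists. In adipocytes 50 of 57 other mitosis genes were lower without Acly and 1 was higher (median log2 change -0.56), where 29.2% of all genes tested were lower and 25.6% higher. Cdca3, for a trigger of mitotic entry, changed by -1.22, SE 0.10 (limma adjusted p = 3.09e-07), Kntc1, for a kinetochore protein of the checkpoint, by -1.14, SE 0.09, and Mad1l1, for the partner of Mad2, was the gene that rose (0.27, SE 0.09, adjusted p = 0.0182). Of 16 genes of G2/M control, 12 fell and 2 rose (median -0.56). Cdkn3, for a phosphatase of Cdk proteins, changed by -1.25, SE 0.09, and Gmnn, for the replication inhibitor geminin, by -1.18, SE 0.12, while Gtse1, for a G2 and S phase protein, rose by 0.65, SE 0.11. Of 30 DNA replication genes 26 fell (median -0.74), among them Tk1, for thymidine kinase (-1.34, SE 0.09), and the replication genes Cdc45 (-1.24, SE 0.08) and Cdt1 (-1.20, SE 0.11).

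Of 17 genes of APC/C subunits and regulators, 4 fell and 2 rose in adipocytes (median -0.12), so that 35.3% were called, below the 54.8% of all genes tested. Those that fell included Ube2s, for the other ubiquitin-conjugating enzyme of the APC/C (-0.67, SE 0.12), and Fzr1, for the activator Cdh1 (-0.47, SE 0.10). Of 19 genes of the DREAM, MuvB, E2F and pocket protein list 14 fell and none rose (median -0.53), with the repressor genes E2f7 and E2f8 at -0.94 and -0.92. The list of 14 tested G1 cyclins, their kinases and Cdk inhibitors split, with 8 lower and 3 higher (median -0.47). The 3 higher genes were Cdkn1a, Cdkn2b and Ccnd1. The inhibitor gene Cdkn1a, for p21, stood at 203, 183 and 190.2 FPKM with Acly and 296, 308 and 302 FPKM without (log2 change 0.65, SE 0.09, limma adjusted p = 3.47e-05). Cdkn2b, for the inhibitor p15, stood at 41.3, 37.5 and 34.3 FPKM and 93.97, 93.3 and 84.2 FPKM (log2 change 1.24, SE 0.11, limma adjusted p = 9.14e-07). The gene of cyclin D1, Ccnd1, which drives entry into the cycle, stood at 0.665, 0.596 and 0.375 FPKM and 2.28, 2.29 and 1.71 FPKM (log2 change 1.00, SE 0.13, limma adjusted p = 1.67e-05). All 3 genes separated the genotypes. Of the 8 lower genes, Cdkn2d, for the inhibitor p19, had the largest change (log2 change -1.69, SE 0.10, limma adjusted p = 9.71e-09). The kinase gene Cdk6 (-0.99, SE 0.16) and the cyclin gene Ccne1 (-0.955, SE 0.08) came next.

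In preadipocytes the lists differed in their share of calls, where 42.2% of all genes tested were called. Of the 14 G1 genes 3 were higher and 6 lower (64.3% called), and of the 19 genes of the DREAM list 2 were higher and 6 lower (42.1%). Of the 16 genes of G2/M control 2 were higher and 4 lower (37.5%), of the 57 other mitosis genes 7 and 9 (28.1%), of the 30 DNA replication genes 3 and 4 (23.3%), and of the 17 APC/C genes 3 were higher and none lower (17.6%). Cdkn2b was already higher without Acly, at 59.9, 86.3 and 79.3 FPKM against 24.4, 24.3 and 23.96 FPKM (log2 change 1.58, SE 0.11, limma adjusted p = 1.84e-07), and so was Ccnd1, at 19.95, 16.8 and 18.8 FPKM against 4.93, 4.65 and 3.51 FPKM (log2 change 1.87, SE 0.13, limma adjusted p = 9.8e-08). The inhibitor genes Cdkn2c, for p18, and Cdkn2d were lower, by log2 changes of -0.58, SE 0.10 (limma adjusted p = 0.000311) and -0.46, SE 0.10 (adjusted p = 0.0018). Cdkn2c stood at 52.8, 66.99 and 56.5 FPKM without Acly against 95.6, 91.3 and 78.5 FPKM with it. All 4 genes separated the genotypes before differentiation.

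**Figure D5:**
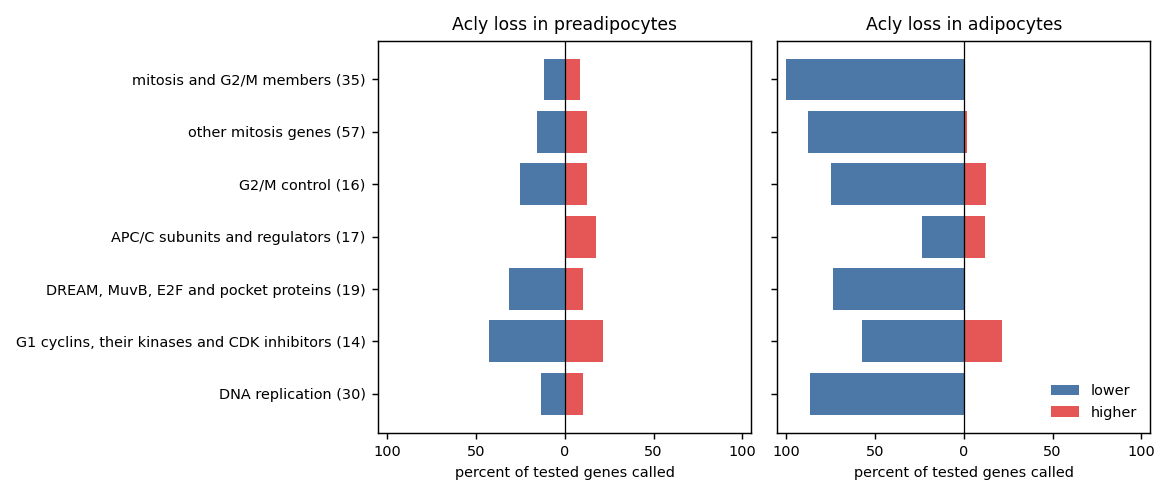
Bars give the percentage of tested genes called lower (blue, to the left) and higher (red, to the right) without Acly at a limma adjusted p under 0.05, in preadipocytes and in adipocytes, for the 35 members and the 6 other cell cycle lists (number tested in brackets). In adipocytes the members reach 100% lower, the other mitosis genes and DNA replication come next, and the APC/C list has the fewest calls.

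Levels of cell type markers also differed in the adipocyte libraries in which the members were low. The summed FPKM of 6 adipocyte markers was 10910.2 to 11804 in Aclyf/f and 6635 to 8189 in Acly-/- adipocytes, after 1005 to 1075 and 591 to 659 on day 0. All 6 were called lower in Acly-/- adipocytes, with Adipoq, the adiponectin gene, at 544 ± 7.05 and 60.7 ± 1.24 FPKM. Already on day 0, 3 of them were lower without Acly: Fabp4 (log2 change -1.335), Cd36 (-0.55) and Lpl (-0.29). In the interaction 3 of the 6 were lower and 1, Fabp4, was higher (0.80). The sum of 5 preadipocyte markers was 122 to 185 in Aclyf/f and 653 to 703 in Acly-/- adipocytes, after 555 to 657 and 732 to 1045 on day 0, and both markers tested, Ly6a and Pdgfra, were higher in Acly-/- adipocytes. On day 0 the 2 had differed in direction, with Ly6a higher without Acly (log2 change 0.83) and Pdgfra lower (-0.86). The sum of 6 macrophage and leukocyte markers was 2.48 to 3.49 in Aclyf/f and 30.5 to 36.3 in Acly-/- adipocytes, after 4.64 to 7.59 and 4.96 to 7.60 on day 0. Of the 2 tested, Cd68 was called higher (1.498 ± 0.344 against 32.6 ± 3.12 FPKM) and Cd14 was not, while Ptprc, Adgre1 and Csf1r, which define leukocytes and macrophages, were under 1 FPKM in every library. Smooth muscle and pericyte markers summed to 20.1 to 32.1 in Aclyf/f and 44.1 to 51.7 in Acly-/- adipocytes, after 393 to 407 and 121 to 135 on day 0, and Rgs5 and Cspg4 were under 1 FPKM throughout. The 2 tested went opposite ways in adipocytes, with Acta2 higher (log2 change 1.36, SE 0.16) and Myh11 lower (-0.94, SE 0.10) without Acly. Skeletal muscle markers stayed at or under 5.98, endothelial markers at or under 1.67 and those of mesothelium and epithelium at or under 0.222 in summed FPKM. The part of these differences in the lower members was not tested.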

How the data were processed

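RNA-seq values of 12 libraries in 4 groups of 3 were read from 1 deposited table. The deposited values are FPKM, per the file headers, with 1 column per library and 24341 genes, and 0.01 is the lowest value. Of tools and builds, Cufflinks 2.2.1, Bowtie2 2.2.6, bcl2fastq and mm10 appear in the submitters' processing notes, without roles. Neither the aligner's settings nor the annotation, the filter or the use of strand is stated, so fragments of overlapping genes may not be kept apart, and Acly values cover the whole gene. The table holds no counts. Relative depth, from the steps of 1 fragment in FPKM under 0.3, was 1 to 1.94, which limits the precision of low values.

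Here log2(FPKM + 1) of the 11777 genes that reached 1 FPKM in 3 or more libraries was fitted with limma 3.58.1 (R 4.3.3) as 4 group means with trended, moderated variances, two-sided. The 5 contrasts were Acly loss at each stage, differentiation in each genotype and their interaction. P-values were adjusted by Benjamini-Hochberg over all 11777 genes, and the fit was tested on simulated data. Same-numbered libraries of the 2 Acly-/- groups deviated together from their group means over genes (correlations 0.123 to 0.147, against -0.154 to 0.0215 for unlike numbers). No other pairing of groups met this, and the labels state no pairs. Unlike-numbered libraries reached up to 0.416 between Acly-/- preadipocytes and Aclyf/f adipocytes, so these correlations cannot establish pairs. Deviations from a mean of 3 also tie the unlike-number values to the same-number ones. The main fit used no pairs. Folds are ratios of mean FPKM. Starts were raised by 1 base to count from 1. Alternatives were a pseudocount of 0.1, no filter, 3 rescalings, a replicate block, fits of only the compared groups, and leaving out each library. Promoters are from RefSeq. Tables and figures used Python 3.11.15, numpy 2.4.6, pandas 2.3.3 and matplotlib 3.10.9.

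The members and the other gene lists were chosen with earlier results of these data known. Any member could be named. Values per library were planned for the most abundant member of each role group, the 3 largest and 3 smallest changes with Acly loss in adipocytes and members against the direction of most; the other lists name up to 3 called genes per direction.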

Additional observations from a re-analysis of the deposited data

Results flagged for a closer look

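For 34 members the effect of Acly loss differed between the stages, by the interaction term in limma at an adjusted p under 0.05. Of all genes tested, 50.2% passed in either direction and 26.4% passed as lower. The values are log2 changes for Acly loss in adipocytes minus those in preadipocytes.
Among the cyclins, Cdk1 and its activators the difference was -0.72 for Cdk1, -0.48 for Ccna2, -0.61 for Ccnb1, -0.80 for Ccnb2, -1.20 for Cdc25b, -0.69 for Cdc25c and -1.06 for Foxm1. For the mitotic kinases the difference was -0.63 for Plk1, -0.89 for Aurka, -0.94 for Aurkb, -1.09 for Nek2 and -0.65 for Ttk. In the spindle checkpoint the difference was -0.93 for Mad2l1, -0.56 for Bub1b and -0.41 for Bub3. For anaphase release the difference was -0.96 for Cdc20, -0.83 for Ube2c, -0.88 for Pttg1 and -1.07 for Espl1. Of the kinesins the difference was -0.54 for Kif11, -0.42 for Kif20a, -0.32 for Kif23, -0.80 for Kif2c and -0.59 for Kif4. Centromere and passenger proteins followed, and the difference was -0.70 for Cenpa, -0.62 for Cenpe, -0.45 for Cenpf and -0.82 for Birc5. In the spindle microtubule proteins the difference was -0.64 for Nusap1, -0.62 for Prc1, -0.48 for Tpx2 and -0.41 for Hmmr. Of the chromosome proteins the difference was -0.81 for Top2a and -0.76 for Mki67. All 34 are negative, but the calls of Kif23, Cenpf and Hmmr were lost in 14, 9 and 1 of the alternatives tried. Markers of adipocytes and preadipocytes also differed between these libraries, with the values given above. Of the macrophage and leukocyte markers tested, Cd68 was called in adipocytes and Cd14 was not. The part of these markers in the difference was not tested.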

How the results depend on the processing

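Outside the fits that left out a library, no count of called members or genes moved by over 1.5 times. With the replicate number as a block (replicate block), 35 members were lower in adipocytes, 3 higher and 4 lower in preadipocytes, 23 lower and 4 higher with differentiation in Aclyf/f cells, 32 lower in Acly-/- cells and 33 lower in the interaction. In Acly-/- differentiation, a replicate block fitted to these 2 groups alone, chosen after seeing the data, also gave 32 lower and 0 higher members. This block changed no member's call, and whether same-numbered libraries are pairs is not known. In the other 5 pairings of groups some or all same-numbered libraries did not deviate together (correlations from -0.414 to 0.135), and there the block changed 2 calls, those of Plk1 in Aclyf/f differentiation (adjusted p = 0.0609) and Kif23 in the interaction (0.0712). Leaving out 1 library gave 33 to 35 lower members in adipocytes, 2 to 5 higher and 1 to 5 lower in preadipocytes, 21 to 25 lower and 3 to 4 higher with differentiation in Aclyf/f cells, 32 lower in Acly-/- cells and 32 to 34 lower in the interaction. Over all genes, these fits called 5614 to 6706 in adipocytes and 4002 to 5098 in preadipocytes, in either direction. They called 7963 to 8673 and 6557 to 7330 with differentiation in Aclyf/f and Acly-/- cells, and 5249 to 5797 in the interaction. No change with Acly loss in adipocytes and no interaction changed sign in any alternative.

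Changes near 0 turned sign, and the cause was not tested. For Acly loss in preadipocytes, leaving out 1 library gave log2 changes of -0.088 to 0.0031 for Ccna2, -0.023 to 0.050 for Ccnb1, -0.11 to 0.038 for Ccnb2, -0.023 to 0.14 for Cdc25c, -0.20 to 0.012 for Ube2c, -0.13 to 0.032 for Cenpa and -0.095 to 0.073 for Top2a. Scaling to the same FPKM sum gave -0.074 for Ccnb1, -0.027 for Cdc25c, -0.0021 for Espl1, -0.012 for Birc5 and -0.035 for Tpx2, and quantile normalization gave -0.0045 for Ccnb1. With differentiation in Aclyf/f cells, quantile normalization gave -0.0072 for Aurka and -0.10 for Tpx2, median-of-ratios rescaling gave -0.014 for Tpx2, and leaving out 1 library -0.028 to 0.026 for Tpx2. In Acly-/- cells quantile normalization gave -0.0092 for Pttg1, and leaving out 1 library gave -0.15 to 0.11 for Pttg1 and -0.033 to 0.10 for Cdc25b. These rescalings moved the median of all genes by at most 0.1 on the log2 scale.

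Replicates are 3 per group and their origin is not given. FPKM without counts gives no counting error, and levels are relative to each library, so a change in total RNA per cell is not seen.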
